A study of Mus musculus with 6 samples.

Results

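The Bcl2 family genes examined here are 10 genes that set the threshold for cell death through mitochondria: Bcl2, Bcl2l1, Mcl1, Bcl2l11, Bad, Bak1, Bid, Bmf, Bbc3 and Pmaip1. They were chosen by name, and a gene was taken as measured where an array row carried its symbol and no other. All 10 were found, with 1 row each, among 19938 genes in 21789 such rows. The values came from 6 Affymetrix GeneChip Mouse Gene 1.0 ST arrays of bone marrow KSL cells, the cKit+ Sca1+ fraction without lineage markers that holds the stem cells and earliest progenitors of blood. In 3 arrays the mice were labelled Runx1;Runx3 double knockout (DKO), with the genotype Runx1fl/fl;Runx3fl/fl;Mx1-Cre+, and in 3 they were labelled wild-type littermates (WT), with both floxed alleles but no Cre (Runx1fl/fl;Runx3fl/fl;Mx1-Cre-). Both groups were C57BL/6, backcrossed for 3 generations or more. In Mx1-Cre an interferon-responsive promoter drives the recombinase, and pIpC, a synthetic RNA duplex that provokes interferon, switches it on. The protocol text, shared by both groups, gives 7 doses of 600 µg every other day, begun at an age of 4 weeks. No source used here gives the time from the last dose to the sort.

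Some limits of the groups apply to every value. The controls lacked the transgene, so the deletion and the presence of Cre cannot be told apart. Each WT sample was a pool of 3 mice per the design text, which also counts 6 mice in all, and the pooling of the DKO samples is not stated. A p-value therefore measures the spread between these arrays, whether pools or single animals. Arrays of a group correlated at 0.993 to 0.995 (DKO) and 0.989 to 0.991 (WT) over all genes, and at 0.976 to 0.98 between groups. The deleted genes were looked at first: Runx1 had a mean log2 signal of 9.29 in DKO-labelled and 8.47 in WT-labelled arrays, higher by 0.82 (limma adjusted p = 0.000427), and Runx3 had 7.38 and 7.53 (limma adjusted p = 0.253). A signal averaged over a whole gene can include probes outside the deleted exons, so it cannot check the deletion, and every direction below is that of the labels. Of the sorted surface proteins, Kit had a mean signal of 9.75 in WT and 10.49 in DKO, above the upper quartile of all genes on every array (7.23 to 7.31), and Ly6a, which encodes Sca1, is not analysed here. Of 7 measured T and NK cell markers 4, among them Cd3d and Cd3g, lay below the lower quartile on all 6 arrays. Cd4 and Cd8a lay below the median on all 6 arrays, whereas Cd3e lay above it on all 6 (6.08 to 6.25). Of 5 B cell markers, Cd79a and Ms4a1 lay below the lower quartile on all 6 arrays. By contrast, Cd79b lay above the median on all 6 arrays (6.78 to 7.28). Cd72 had a mean of 7.97 in WT and 5.92 in DKO.

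The family falls into 3 kinds. Pro-survival proteins (Bcl2; Bcl-xL, from Bcl2l1; Mcl1) hold the effectors in check, the effectors (Bak1 here, and Bax) perforate the outer mitochondrial membrane so that cytochrome c escapes, and the BH3-only proteins (Bim, from Bcl2l11; Bad; Bid; Bmf; Puma, from Bbc3; Noxa, from Pmaip1) relay damage or the loss of growth signals by binding the other 2 kinds. Blood stem cells are known to depend on Mcl1, and Bcl2 is known for its part in the survival of stem cells and lymphocytes.

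In DKO-labelled KSL cells Bcl2 was 4.34-fold lower than in WT, the effector Bak1 was 1.26-fold lower and the BH3-only gene Bad was 1.25-fold lower. These 3 of 10 members passed the test, and 0 rose by it. It was limma's moderated test with Benjamini-Hochberg adjustment over all genes and a threshold of 0.05. Of all 19938 genes 17.4% passed: 7.69% of all genes were lower and 9.71% of all genes higher in DKO. Before adjustment, 5 of 10 members and 6168 of the 19938 genes had a limma p under 0.05. Fold changes are differences of log2 signal between group means, DKO minus WT, and n is 3 per group throughout. The median difference of the members was -0.09, beside -0.04 over all genes.

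Since Runx proteins bind DNA at a short core, the promoter sequences of the members are shown for the gene that fell most and for each stretch that held this core. RefSeq promoter windows (250 bases before and 50 after a transcription start, GRCm38.p6) were found for 9 members, with 17 starts in all. The core was searched as TGTGGT and TGCGGT on both strands, and 22.4% of all 32851 windows in the table held either. The only annotated start of Bcl2 lies on the minus strand. The 250 bases before it, chr1:106714291-106714540, held 0 matches, as did the 50 bases after the start. The capitals mark the one match to TGACGT, the core of the cAMP response element, at -107 to -102 from the start, letters that 7.51% of all windows hold, and the window was 76.0% G and C against a median of 52.7%.
Bcl2 promoter: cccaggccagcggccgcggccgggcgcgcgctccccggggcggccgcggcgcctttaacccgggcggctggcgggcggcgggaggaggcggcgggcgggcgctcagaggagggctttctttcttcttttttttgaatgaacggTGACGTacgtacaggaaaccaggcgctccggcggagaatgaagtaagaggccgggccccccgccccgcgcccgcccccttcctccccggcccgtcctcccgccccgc

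Of the 9 members, 3 had the Runx core in at least 1 window, in 4 of the 17 windows. The 30-base stretches below hold the matches that lie before a start, with the core or its reverse complement in capitals, 5′ to 3′ on the gene's strand. They come from the single window of Bak1 (chr17:27028831-27028860, minus strand, core at -221 to -216), from window 2 of 3 of Bmf (chr2:118547749-118547778 and chr2:118547651-118547680, minus strand, the second with 2 cores that share a base), and from both windows of Bcl2l11 (chr2:128125996-128126025 and chr2:128127352-128127381, plus strand).
Bak1: tttgttgttgtcTGTGGTttgcttttcact
Bmf, first stretch: tccagattaaccTGTGGTgagcaggcagct
Bmf, second stretch: gacacactcACCACACCACAgagcctgttt
Bcl2l11, window 1: gggggctcaactACCGCAgagtctcaagag
Bcl2l11, window 2: tccagccggagcTGCGGTggccggcacagt
Window 1 of Bcl2l11 held 1 more match, at 44 to 49 after the start. Of these 3 genes only Bak1 passed the test, while Bcl2 and Bad, the other 2 members that passed, held no match in their windows. Over all genes with a window, 24.4% of those lower in DKO, 24.2% of those higher and 24.2% of those that did not pass had a match, which is a description of letters in these windows and says nothing about binding. The windows were also searched for TGACGT and for a Foxo core, TGTTTAC. Among the members, TGACGT matched in Bcl2 alone. TGTTTAC matched in window 1 of Bcl2l11 (-227 to -221), window 2 of Bbc3 (-167 to -161) and 3.65% of all windows. Binding was not measured for these letters either.

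Bcl2, the founding inhibitor of the family, had WT signals of 9.02, 9.01 and 9.04 on the log2 scale. Its DKO signals were 7.19, 6.45 and 7.06, all below every WT signal. The WT arrays were nearly equal (SD 0.0161), whereas the DKO arrays were spread (SD 0.393, a spread exceeded by 0.913% of all genes), with replicate 2 the lowest. Bcl2 fell by 2.12 (SE 0.167, 95% interval -2.49 to -1.74, limma adjusted p = 7.73e-05), the 21st largest difference in size of all 19938 genes. It was at -1.90 without DKO replicate 2 and at -2.26 without DKO replicate 1, and its call held in each of 18 alternatives. The platform annotation lists 2 curated RefSeq transcripts for this row, so transcript forms of Bcl2 were not measured apart.

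**Figure D1:**
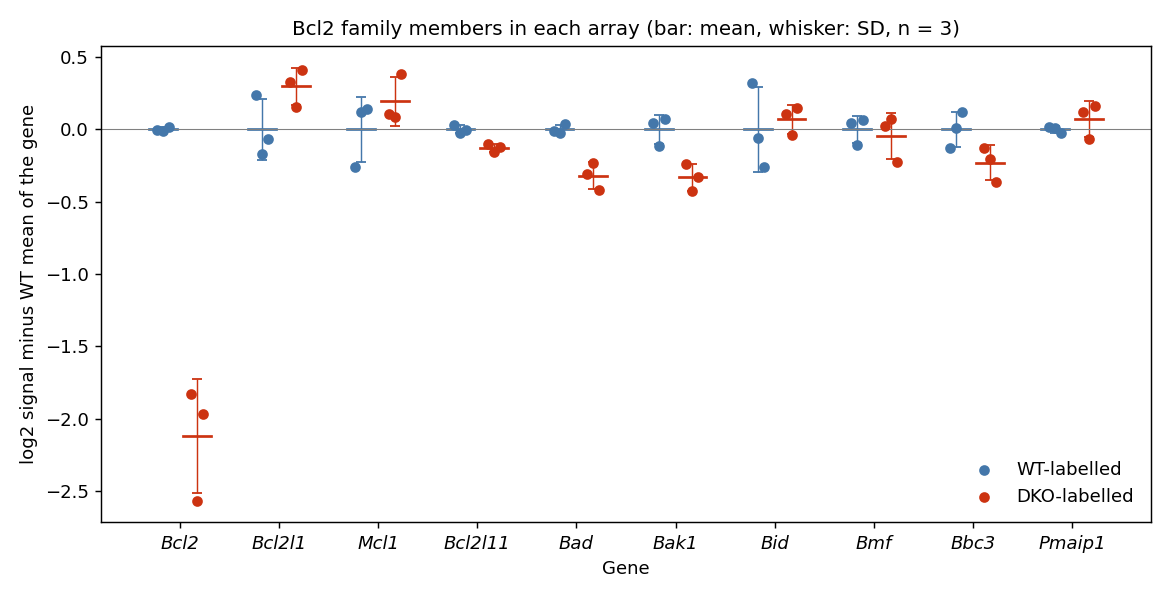
Log2 signal of each member in each array minus the gene's own WT mean (vertical axis), by gene (horizontal axis), with WT-labelled arrays in blue and DKO-labelled arrays in red; long bars are means and whiskers SD, n = 3. The 3 DKO points of Bcl2, with a mean of -2.12, lie far below those of the other 9 members, whose mean differences run from -0.33 to 0.30.

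The other pro-survival members had positive differences that did not pass. Bcl2l1, whose long form protects cells and whose short form promotes death, had DKO signals of 7.46, 7.28 and 7.54 and WT signals of 7.36, 6.96 and 7.06. Of the 3 DKO values 2 were above all WT values, and WT replicate 1 overlapped them. The difference was 0.30 (SE 0.121, 95% interval 0.03 to 0.57, limma adjusted p = 0.128), and it passed without WT replicate 1 (0.42, limma adjusted p = 0.0315). The row covers 4 curated transcripts, so the long and short forms were not measured apart.

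Mcl1, a short-lived protein that restrains Bak1, had DKO signals of 9.17, 9.15 and 9.45 and WT signals of 8.80, 9.18 and 9.20. The groups overlapped, with WT replicate 1 low and DKO replicate 3 high. The difference was 0.19 (95% interval -0.10 to 0.49, limma adjusted p = 0.363). It was 0.0625 without WT replicate 1, 0.0967 without DKO replicate 3, 0.0255 with quantile normalisation and 0.0527 with cyclic loess. The interval of Bcl2 lay wholly below those of Bcl2l1 and Mcl1, and the differences between the genes' changes were not tested.

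The effector Bak1 had WT signals of 7.59, 7.43 and 7.62. Its DKO signals were 7.31, 7.12 and 7.21, all below every WT signal. Bak1 fell by 0.33 (SE 0.0937, 95% interval -0.54 to -0.12, limma adjusted p = 0.0378), in 3 of 3 DKO arrays. The call held without WT replicate 2 (adjusted p = 0.0305) and ended when DKO replicate 1, 2 or 3 was left out (adjusted p = 0.0609, 0.130 and 0.106) or WT replicate 1 or 3 (0.0828 and 0.106), and with median centring (0.0618) or a trend over gene span and signal removed (0.0609). Bax, the other main effector, is not analysed here.

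Bad, a BH3-only protein that growth factor signalling keeps inactive by phosphorylation, had WT signals of 7.05, 7.03 and 7.10 and DKO signals of 6.75, 6.83 and 6.64. The groups did not overlap. Bad fell by 0.32 (SE 0.087, 95% interval -0.51 to -0.12, limma adjusted p = 0.0326). Its call ended when DKO replicate 1, 2 or 3 was left out (adjusted p = 0.0916, 0.0507 and 0.125) or WT replicate 1, 2 or 3 (0.0576, 0.0529 and 0.0859), with median centring (0.0548) and with the trend removed (0.0616).

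**Figure D2:**
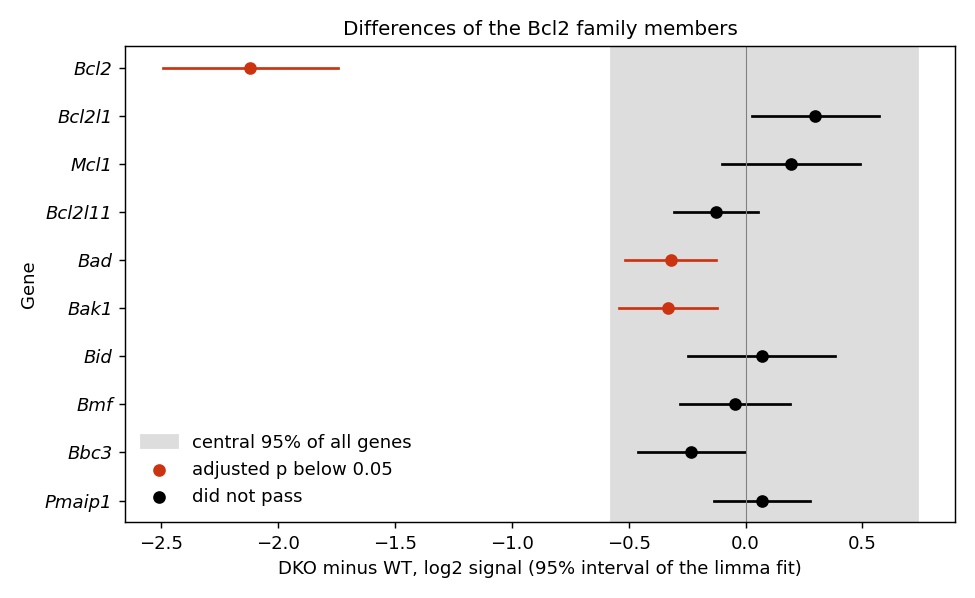
Difference of each member between groups, DKO minus WT in log2 signal (horizontal axis), with the 95% interval of the limma fit; red marks an adjusted p below 0.05 and the grey band the central 95% of all genes (-0.58 to 0.74). Bcl2 lies far below the band and the other 9 members lie inside it.

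Of the 6 BH3-only genes, Bad was the one that passed. Bcl2l11, which encodes Bim, a killer of cells deprived of cytokines, had DKO signals of 5.63, 5.57 and 5.61 and WT signals of 5.76, 5.71 and 5.73. The groups did not overlap, yet the gap was narrow, and the difference of -0.13 (95% interval -0.31 to 0.05) did not pass (limma adjusted p = 0.323), and it was as small as -0.0593 with cyclic loess. With it, 4 of 10 members had all DKO values below all WT values, and 0 had them above. Over all genes 19.6% and 16.2% did, 35.8% together.

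Bbc3, which encodes the p53 target Puma, had DKO signals of 5.80, 5.72 and 5.57 and WT signals of 5.80, 5.94 and 6.05. The groups met at 5.80 in replicate 1 of each. The difference was -0.23 (95% interval -0.46 to -0.003, limma adjusted p = 0.156). Bcl2l11, Bbc3 and Pmaip1 lay below the median of all genes on every array (5.98 to 6.05).

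Bid, which caspase-8 cleaves to join death receptors to mitochondria, had DKO signals of 6.25, 6.10 and 6.29 and WT signals of 6.46, 6.09 and 5.89. The DKO values lay within the WT range, and the difference was 0.07 (95% interval -0.24 to 0.38, limma adjusted p = 0.781). Bmf, which is tied to the cytoskeleton until freed by stress, had DKO signals of 6.01, 6.06 and 5.76 and WT signals of 6.03, 5.88 and 6.05, a difference of -0.04 (95% interval -0.28 to 0.19, limma adjusted p = 0.818). Pmaip1, which encodes the Mcl1-binding protein Noxa, had DKO signals of 5.44, 5.25 and 5.48 and WT signals of 5.33, 5.32 and 5.29, a difference of 0.07 (95% interval -0.13 to 0.28, limma adjusted p = 0.646) that was 0.0264 without DKO replicate 3 and 0.142 without DKO replicate 2. In all 3 genes the groups overlapped, and these intervals leave room for changes of up to about 0.38 on the log2 scale. The sign was not settled for Bid and Bmf, which reversed in 1 and 5 alternatives.

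No 1 array was low for every member. DKO replicate 2 was the lowest of its group for 7 of 10 members (Bcl2, Bcl2l1, Mcl1, Bcl2l11, Bak1, Bid and Pmaip1), against 32.8% of all genes, and the highest for Bad and Bmf. WT replicate 2 was the lowest of its group for 6 of 10, against 37.4% of all genes.

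The 3 genes whose values over the 6 arrays, each minus the gene's WT mean, were nearest to those of Bcl2 were Nkg7, Maged1 and Elane. Their root-mean-square differences from Bcl2 were 0.191, 0.205 and 0.215 on the log2 scale. Nkg7, a gene of cytotoxic granules, was at 9.15 in WT and 7.13 in DKO. Maged1, of the MAGE family, was at 7.45 and 5.42, and Elane, the neutrophil elastase gene, at 8.03 and 5.73. Like Bcl2, each had all DKO values below all WT values and its lowest value in DKO replicate 2. The genes were picked for their nearness to Bcl2, so a like fall follows from the choice. This likeness was a description over 6 arrays.

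**Figure D3:**
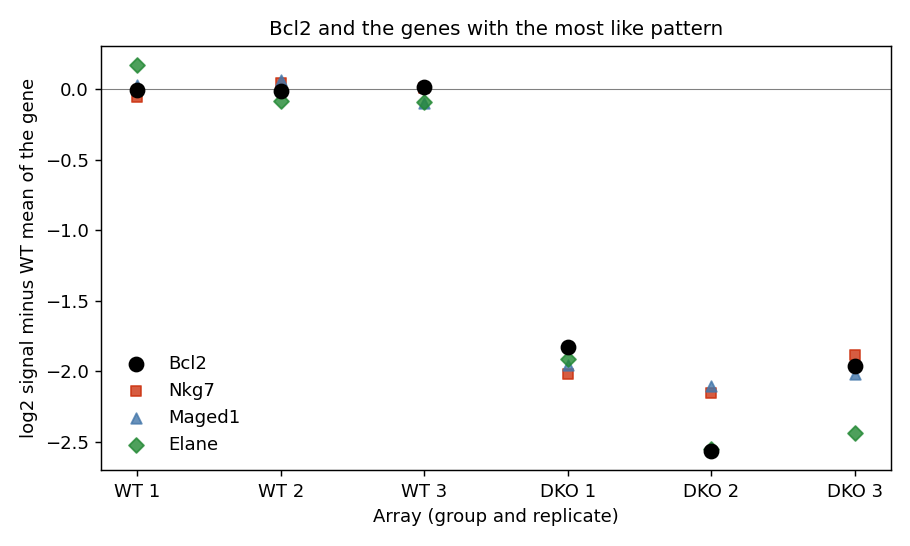
Log2 signal minus the gene's own WT mean (vertical axis) in each array (horizontal axis) for Bcl2 (black circles), Nkg7 (red squares), Maged1 (blue triangles) and Elane (green diamonds). All 4 genes lie near 0 in the WT arrays and far below it in the DKO arrays (mean differences of -2.30 to -2.02), lowest in replicate 2.

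Markers of early blood lineages moved in the same arrays, in which 7.69% of all genes fell and 9.71% rose by the test. Of 5 lymphoid priming markers 3 fell (Dntt, Vpreb1 and Notch1) and 0 rose, with list means of 5.81 to 6.38 in DKO and 7.02 to 7.35 in WT on the log2 scale. Of 6 granulocyte-monocyte progenitor markers 3 fell (Elane, Ms4a3 and Prtn3) and 0 rose (7.43 to 7.89 and 8.73 to 8.77). Of 5 mast cell and basophil markers 3 rose and 2 fell (7.48 to 7.51 and 6.40 to 6.68). Of 6 measured genes that define or subdivide the gate 4 rose and 1 fell. Slamf1, a marker of stem cells, rose by 1.95, Cd48, which stem cells lack, rose by 1.46, Kit rose by 0.73 and Ptprc, the pan-leukocyte gene, by 0.76, while Flt3, a receptor of lymphoid-primed progenitors, fell by 1.32 and Cd34 differed by 0.02 without passing. Their part in the fall of Bcl2 was not tested, and in these sorted mixtures fewer cells of a kind and less RNA per cell cannot be told apart. Of the other lists, 2 of 4 erythroid, 1 of 5 B cell, 0 of 7 T and NK cell and 0 of 6 mature neutrophil markers fell, 0 of each rose, and 2 of 4 platelet markers rose with 0 falling.

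Other genes of the family showed smaller differences than Bcl2. Of 16 listed, 12 were measured, of which 2 fell, 0 rose and 10 did not pass, with a median of -0.13. The share of all genes that passed was 17.4%. Bnip3l, a mitochondrial protein that marks mitochondria for removal and is prominent in red cell maturation, fell by 0.42 (10.31 in WT, 9.88 in DKO, limma adjusted p = 0.0128), a call that ended without DKO replicate 3 (0.0558). Bcl2l12 fell by 0.34 (limma adjusted p = 0.0314), and its call ended without DKO replicates 2 or 3 (0.0979 and 0.119), without WT replicates 1 or 3 (0.0606 and 0.0892), with median centring (0.0519) and with the trend removed (0.0636). The BH3-only gene Hrk and the mitochondrial Bcl2l13 differed by -0.23 and 0.17 without passing (limma adjusted p = 0.133 and 0.225). Bcl2l2, Bok and Bik, a pro-survival gene, an effector and a BH3-only gene, differed by -0.07, -0.02 and -0.19 without passing, and the sign turned in 2 of 17 alternatives for Bcl2l2 and in 6 of 17 for Bok.

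Downstream of the family, the apoptosome gene moved most. Of 18 listed genes of the later mitochondrial steps, 16 were measured, of which 3 rose, 1 fell and 12 did not pass (median 0.01). Beside them, 17.4% of all genes passed. Apaf1, the scaffold on which released cytochrome c assembles caspase-9, had WT signals of 7.52, 7.47 and 7.49 and DKO signals of 8.44, 8.54 and 8.48. It rose 1.99-fold (0.99, SE 0.0819, limma adjusted p = 0.000101) with no overlap of the groups. Its call held in all 18 alternatives. The calls of Vdac1, Vdac3, Ppp3ca, Usp9x, Akt1 and Foxo1 below held in the 17 alternatives other than Holm adjustment. Cycs and Casp9, cytochrome c and the caspase it activates, differed by -0.18 and -0.05 without passing. The value of Cycs was -0.0036 without WT replicate 2, and the sign of Casp9 turned in 4 of 16 alternatives.

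Genes of the mitochondrial outer membrane channels split. Vdac3 rose by 0.56 (limma adjusted p = 0.00295) and Vdac1 fell by 0.58 (0.0050). Vdac2, whose product is known to hold Bak1 in the membrane, did not pass (limma adjusted p = 0.346). Its means were 10.02 in WT and 10.18 in DKO, and the groups overlapped. Xiap, an inhibitor of the executioner caspases, rose by 0.41 (limma adjusted p = 0.0321). That call ended with the trend removed (0.0703) and when DKO replicate 1, 2 or 3 was left out (0.0827, 0.0665 and 0.119) or WT replicate 1 or 3 (0.0834 and 0.0928).

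**Figure D4:**
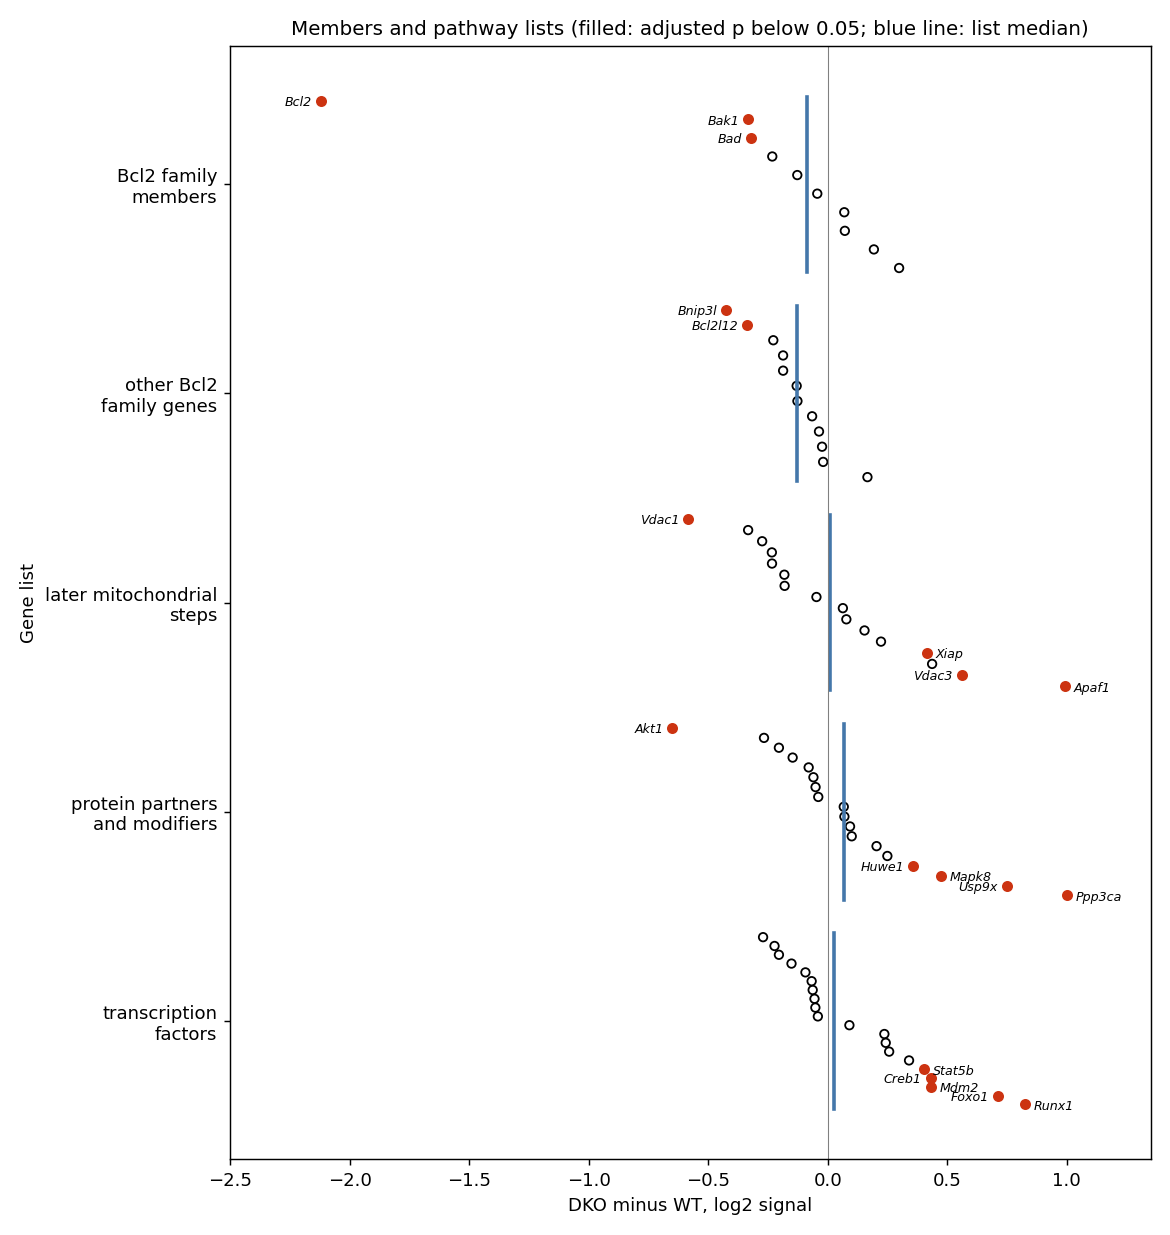
Difference of each gene, DKO minus WT in log2 signal (horizontal axis), for the members and 4 lists of related genes (vertical axis); filled points passed an adjusted p of 0.05, open points did not, and blue lines are list medians. The medians lie between -0.13 and 0.07, Bcl2 is the lowest point of any list, and Apaf1 and Ppp3ca are the highest.

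Of 22 listed proteins that bind or modify the members, 18 were measured, of which 4 rose, 1 fell and 13 did not pass (median 0.07). Beside them, 17.4% of all genes passed. Ppp3ca, a catalytic subunit of calcineurin, the phosphatase that can activate Bad, rose by 1.00 (8.20 in WT, 9.20 in DKO, limma adjusted p = 0.00043). Akt1, a kinase that phosphorylates Bad, fell by 0.65, from WT signals of 7.73, 7.46 and 7.68 to DKO signals of 7.04, 6.89 and 6.99 (limma adjusted p = 0.00241). Usp9x, the deubiquitinase that stabilises Mcl1, rose by 0.75 (limma adjusted p = 0.00114). Huwe1, a ligase that marks Mcl1 for destruction, rose by 0.36 (limma adjusted p = 0.0153), a value that was 0.19 with quantile normalisation (adjusted p = 0.17), 0.22 with cyclic loess (0.114) and 0.09 with the trend removed (0.537), and its call also ended without DKO replicates 2 or 3 (0.0505 and 0.0627). Mapk8, a kinase of the JNK group that can free Bim and Bmf, rose by 0.47 (limma adjusted p = 0.0128), and its call ended without DKO replicate 3 (0.0581) and with the trend removed (0.0647).

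Of 22 listed transcription factors and regulators known to act on members' genes, 20 were measured, of which 5 rose, 0 fell and 15 did not pass (median 0.02). Runx1 itself is one of the 5. The share of all genes that passed was 17.4%. Foxo1, which can activate the genes of Bim and Puma, rose by 0.71 (6.14 in WT, 6.86 in DKO, limma adjusted p = 0.00172). Stat5b, a mediator of cytokine survival signals, rose by 0.40 (limma adjusted p = 0.0139), with its call ending without DKO replicates 1 or 2 (0.0513 and 0.0594) and with the trend removed (0.0682). Mdm2, the ligase that limits p53, rose by 0.43 (limma adjusted p = 0.0179), with its call ending without DKO replicate 3 (0.0748). Creb1, which binds the cAMP response element, rose by 0.43 (limma adjusted p = 0.0286). Its value was 0.27 with quantile normalisation (adjusted p = 0.104) and 0.20 with the trend removed (0.283), and the call also ended with cyclic loess (0.0893), when DKO replicate 1, 2 or 3 was left out (0.0765, 0.0776 and 0.0963) and without WT replicates 1 or 3 (0.0695 and 0.0799). Myb and Myc, which have been tied to Bcl2 and to cell death, differed by -0.04 and -0.05 without passing, with the sign turned in 3 and 2 of 17 alternatives.

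**Figure D5:**
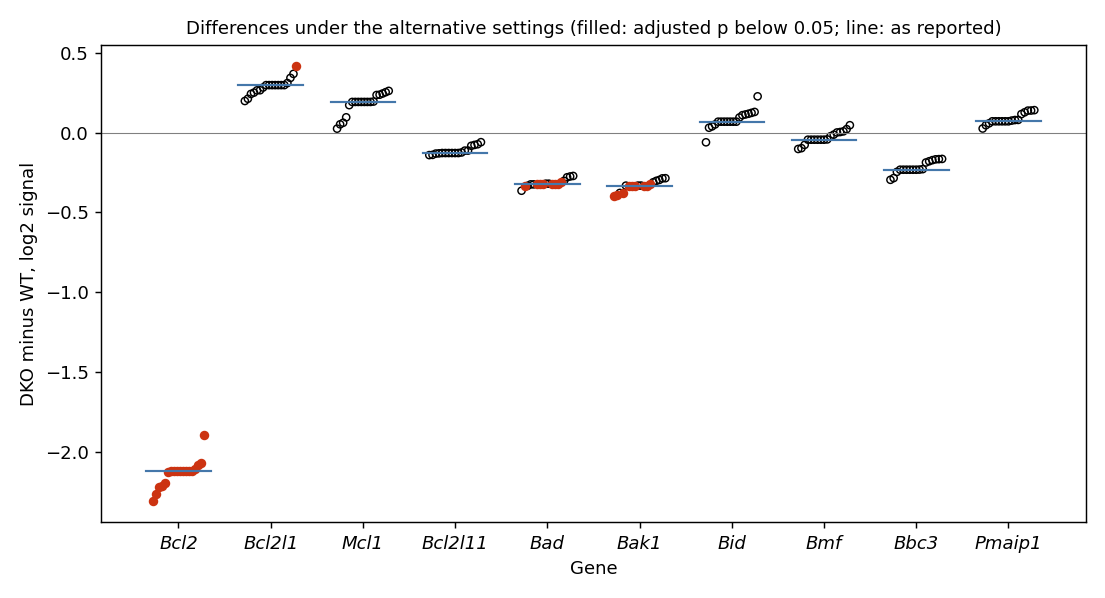
Difference of each member, DKO minus WT in log2 signal (vertical axis), under each alternative setting (points) by gene (horizontal axis), with blue lines at the values as reported; filled points passed an adjusted p of 0.05. Bcl2 passed in 18 of 18 alternatives, Bak1 in 9, Bad in 8 and Bcl2l1 in 1.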

How the data were processed

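Per the labels' protocols, NuGEN WT-Ovation Pico reagents amplified the RNA of 6 sorted KSL samples before hybridisation to 1-colour arrays. Deposited values are log2 signals, 1 per probe set and array, made by the authors with Affymetrix Expression Console 1.0 per the submitters' processing notes. Per the labels, the titles name gene-level RMA while the design text names MAS 5.0, and the range of 1.25 to 13.7 with near-equal array medians is that of log2 RMA values. No source used here gives the genome build or annotation version. Of 35556 rows, those with exactly 1 symbol in the platform annotation were kept, and the row with the highest mean stood for a gene. The test was limma's (version 3.58.1, R 4.3.3; lmFit, eBayes, two-sided, no filter on dim genes), and the code was tested on simulated data. An exact permutation test of 3 against 3 cannot go below p = 0.1 and was not used. The number of arrays limits the precision. Alternatives were normalisations, removal of a smooth trend over gene span and signal, dim-gene filters, row choices, variance models, the replicate block, Holm adjustment and leaving out each array. The members, lists and tests were chosen with earlier results of these data known. Named genes are the members, of each list up to 4 genes with the smallest p and all others past the threshold, and the 3 genes most like Bcl2. Runx3, Bax, Cycs, Casp9, Vdac2, Bcl2l2, Bok, Bik, Myb, Myc and the marker genes were named outside that rule, after their values were seen.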

Additional observations from a re-analysis of the deposited data

How the results depend on the processing

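Bcl2 kept its direction and its call in all 18 alternatives (-2.31 to -1.90). Bad was no longer past the threshold with median centring (-0.27), the trend removed (-0.28), Holm adjustment (-0.32) and each left-out array (-0.36 to -0.27). The same held for Bak1 at -0.29, -0.30 and -0.33, and for left-out arrays other than WT replicate 2 (-0.38 to -0.29). Without WT replicate 2 Bak1 was at -0.39 and still passed. Bcl2l1 passed without WT replicate 1 (0.21 to 0.42 over left-out arrays). Bid reversed without WT replicate 3 (-0.060, over a range of -0.060 to 0.23). Bmf reversed with quantile normalisation (0.0044), median centring (0.0016), cyclic loess (0.0225), the trend removed (0.0086) and without DKO replicate 3 (0.0471, over a range of -0.10 to 0.0471). The number of members lower in DKO was 1 with median centring, the trend removed and Holm, and 1 to 2 over left-out arrays, and the number higher 0 to 1. Of all genes, 118 rose and 50 fell with Holm, and 1250 to 1868 rose and 843 to 1388 fell over left-out arrays. In the 4 related lists together 12 rose and 4 fell. These were 7 rises with the trend removed, 1 rise and 0 falls with Holm, 7 falls with cyclic loess, and over left-out arrays 7 to 12 rises and 2 to 5 falls. Replicate numbers did not pair the samples: deviations of same-numbered arrays correlated at -0.0087, -0.095 and -0.042. With the replicate block Bad (-0.32, adjusted p = 0.0709), Bak1 (-0.33, 0.0547) and Bcl2l12 (-0.34, 0.0603) missed the threshold, leaving 1 member lower. Array signals give no measured depth.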
